A study of Homo sapiens with 22 samples.

Results

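The cytosolic ribosomal proteins are the protein subunits of the ribosome that translates nuclear mRNA, and their transcripts were followed here after a pulse of RNA labelling. The members were the protein-coding genes with RPL or RPS symbols followed by a number, with RPL letter A or RPS letter A or X allowed, together with RPLP0, RPLP1, RPLP2 and RPSA. They came to 77 genes of 59732 named genes in the count tables, 46 of the large subunit and 31 of the small subunit. Each gene was represented by its protein_coding transcript with the highest mean count over the 0 to 10 h libraries, which was the canonical transcript of the annotation for 52 of the 77. All 77 rows were above the filter of a mean of 1 CPM (a read count scaled to the library's size), and so were 79513 of 227264 transcript rows in all.

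Each ribosome needs its proteins in fixed proportions, and their mRNAs are known for being abundant, long-lived and translated under joint control by the mTOR pathway. Most begin with a C followed by an unbroken run of pyrimidines, the 5′ terminal oligopyrimidine (TOP) tract, through which LARP1 binds them. Most of the genes have several processed pseudogenes, intronless copies inserted elsewhere in the genome. The small-subunit proteins RPS10 and RPS20 also belong to the pathway under study, because ZNF598 is a ubiquitin ligase that marks them when ribosomes collide on an mRNA.

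The cells were HEK293T, an established human embryonic kidney line. They carried either a control hairpin (shControl) or a hairpin against ZNF598 (shZNF598). Both kinds of cells were fed 150 µM bromouridine (BrU) for 24 h and then either collected (0 h) or chased in medium without it, the chases lasting 2, 4, 6, 10 and 24 h, after which BrU-containing RNA was pulled down with an antibody and sequenced (BRIC-Seq). There were 2 libraries per hairpin at each time from 0 to 10 h and 1 per hairpin at 24 h, 22 in all. The sources used here do not say whether the replicates were separate cultures or whether the lines were clonal, so the p-values measure the spread between libraries, which may be technical.

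ZNF598 itself was at 7.79 ± 1.07 CPM (SD, n = 2) in shControl and 0.922 ± 0.212 CPM (n = 2) in shZNF598 at 0 h, and averaged over 0 to 10 h it was lower by -3.05 on the log2 scale (SE 0.087, edgeR adjusted p = 1.17e-18). Total counts ran from 52352359 to 96963584 for the 0 to 10 h libraries and were 21220829 and 40157613 at 24 h. How reads shared between isoforms were counted is not given in the sources used here, but rows of 1 gene could hold nearly the same value, as in RPL10, whose member row was at 68.1 CPM and another row at 67.9 CPM in shControl at 0 h. Member rows held 301 to 62711 counts in the 0 to 10 h libraries. Of the HEK293T-associated genes NEFM, NEFL and INA passed the filter, whereas PAX2 had at most 6 counts and LHX1 at most 28. Of the genes of other cells PTPRC, ALB and KRT5 had at most 2 counts and CD3E and TYR had 0, while COL1A1 had 35 to 103.

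The annotated starts are shown here because the TOP tract is the sequence that the class shares outside the rule that chose it. RefSeq promoter windows of GRCh38.p14 were matched by symbol for 62 of the 77 genes. Of these, 42 (67.7%) had a C at the annotated start followed by at least 4 bases that were each C or T, read on the gene's strand only, against 4.07% of 35116 promoters of the same table. The run at the start was 5 to 19 bases long with a median of 8. The lines below give 10 bases before the annotated start and 20 from it on, with that run in capitals, for the members at both ends of the slopes, 2 members with large level differences (RPL3, RPL13A), the ZNF598 target RPS10 and the ubiquitin fusion gene RPS27A.
RPL39 (chrX:119791611-119791640, minus strand): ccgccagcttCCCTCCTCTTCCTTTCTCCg
RPLP0 (chr12:120201092-120201121, minus strand): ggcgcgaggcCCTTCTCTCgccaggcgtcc
RPSA (chr3:39406710-39406739, plus strand): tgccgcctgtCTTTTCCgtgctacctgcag
RPL10A (chr6:35468391-35468420, plus strand): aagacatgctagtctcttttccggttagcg
RPS28 (chr19:8321486-8321515, plus strand): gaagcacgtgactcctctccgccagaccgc
RPS10 (chr6:34426050-34426079, minus strand): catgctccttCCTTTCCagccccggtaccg
RPS27A (chr2:55231893-55231922, plus strand): agtgacacacaagacccagactcttcccta
RPL3 (chr22:39319604-39319633, minus strand): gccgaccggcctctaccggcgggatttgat
RPL13A (chr19:49487598-49487627, plus strand): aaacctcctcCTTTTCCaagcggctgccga
RPLP1 (chr15:69452808-69452837, plus strand): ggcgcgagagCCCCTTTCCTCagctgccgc
RPS16 (chr19:39435930-39435959, minus strand): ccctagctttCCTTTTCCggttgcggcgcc
RPL28 (chr19:55385922-55385951, plus strand): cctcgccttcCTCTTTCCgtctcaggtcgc
RPL10A, RPS28, RPS27A and RPL3 had no such run at the annotated base. In the RPL10A and RPS28 windows such a run began shortly after that base. In the RPS27A window one began further on, and in the RPL3 window one began just before that base. The count took in none of these. The annotated start was that of the measured transcript row for 39 of the 59 members that could be compared, for 33 of 40 with the run and 6 of 19 without it. It differed by 1009 bases for RPL3 and 775 bases for RPS27A, so their windows do not show the start of the rows measured, and by 43 bases for RPS10 and 12 for RPLP0. The median slope in shControl, described below, was 0.200 for the 42 genes with the run at the annotated base and 0.213 for the 20 without it there. The 20 include RPL10A and RPS28, so the groups do not separate TOP from other mRNAs.

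At the end of labelling the members differed widely in level per length (CPM per kb of transcript). In shControl at 0 h the small-subunit protein RPS4X stood among the highest at 168 ± 0.586 CPM per kb (SD, n = 2), with RPS2 at 165 ± 17.7, RPL41 at 153 ± 23 and RPS27 at 139 ± 10.2. The replicate ranges of RPS4X, RPS2, RPL41 and RPS27 overlapped between neighbours, so their order was not resolved. The lowest were RPL28 at 2.22 ± 0.364, RPS28 at 3.69 ± 0.424, RPL37 at 3.73 ± 0.108, RPL14 at 9.83 ± 1.12 and RPL23 at 10.6 ± 0.0571 CPM per kb, and there RPS28 overlapped RPL37 and RPL14 overlapped RPL23. The member rows were 352 to 7573 nt long with a median of 887 nt, and the low end held long rows: 7573 nt for RPL37, 7136 nt for RPL14 and 4797 nt for RPL28. The median level was 62.5 CPM per kb for the 42 rows under 1 kb and 22 for the 35 longer ones.

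**Figure D1:**
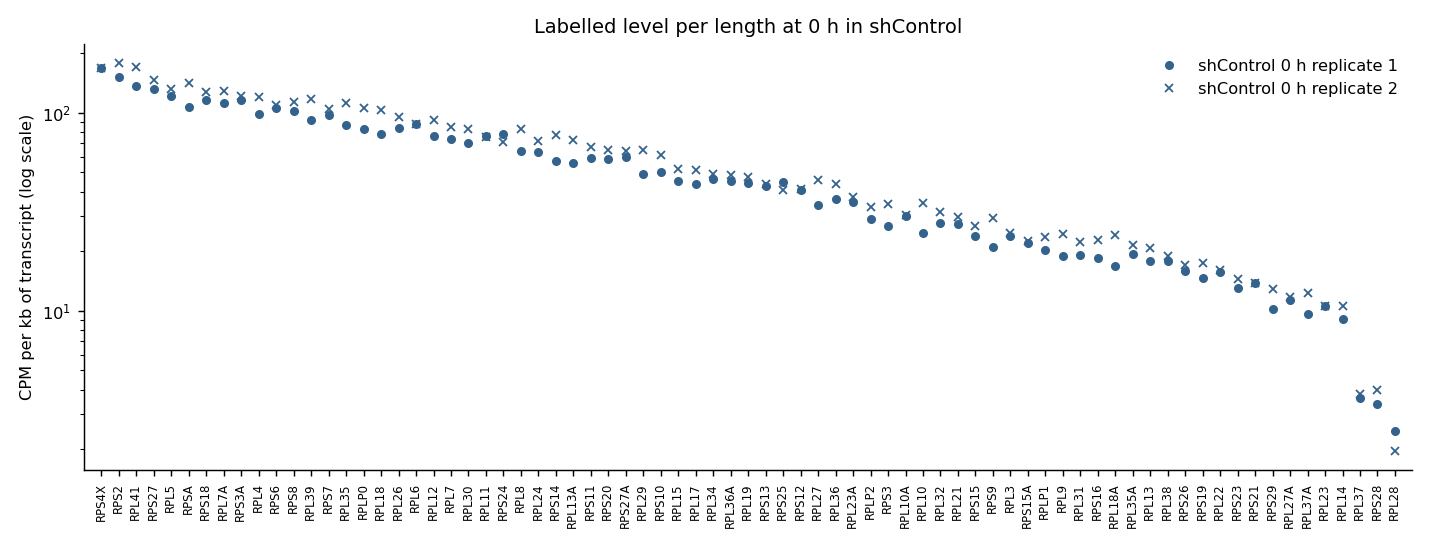
CPM per kb of transcript on a log axis for 75 of the 77 members in the shControl libraries of 0 h, with circles for replicate 1 and crosses for replicate 2, ordered by the mean. RPS4X, RPS2 and RPL41 stand at the high end with means of 168, 165 and 153, and RPL37, RPS28 and RPL28 stand apart at the low end with means of 3.73, 3.69 and 2.22.

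Copies of these genes elsewhere in the genome can limit where reads are placed. Reads were 50 nt long and kept only where they mapped to 1 place. Of the 50-base windows of a member transcript, the share with no exact copy elsewhere on 25 chromosomes ran from 1.8% for RPS3A and 5.0% for RPS27 to 99.8% for RPLP2, with no copied window in RPL38, over the 73 members whose transcript version was in the annotation used. RPS10 had 18.2%, RPS2 22.3% and RPLP0 48.2%. Across these members the level per kb at 0 h and the share of unique windows had Pearson's r = -0.42 and Spearman's rho = -0.48 (n = 73 genes of the same libraries, a description over genes). The median level was 91.2 CPM per kb for the 20 rows with under 50% unique windows and 31.2 for the 53 others. Rows with few unique windows were thus not lower in level per kb, and row length was not adjusted for. Pseudogenes named after the members filled 1654 rows, whose summed count was 111.0% to 119.0% of the summed member count in the 0 to 10 h libraries. The part of pseudogene reads in the values of the parent rows was not tested.

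The first question was how the labelled transcripts behaved in the chase, when no new BrU was supplied. Levels are relative: each library was scaled by edgeR's TMM factors, so a slope above 0 means a rise relative to the bulk of pulled-down RNA. It does not mean that the amount of a transcript grew. Whether slower loss or another cause raised a share was not tested. The spike-in RNAs were not used here. Nearly all members gained in share. Their summed share of all counts in shControl was 0.502% ± 0.0417 (SD, n = 2) at 0 h, 0.467% ± 0.00849 at 2 h, 0.587% ± 0.00778 at 4 h, 0.762% ± 0.00141 at 6 h and 1.19% ± 0.00566 at 10 h. In shZNF598 it was 0.560% ± 0.000707, 0.544% ± 0.0262, 0.653% ± 0.0516, 0.834% ± 0.105 and 1.27% ± 0.0255 at the same times.

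The gain did not begin at once. At 2 h the median member was at 0.898 times its 0 h level in shControl and 0.899 times in shZNF598, and both libraries of 2 h were below both of 0 h for 40 members in shControl (24.1% of all rows) and 41 in shZNF598 (30.7% of all rows). The median then rose to 1.2-fold at 4 h, 1.72-fold at 6 h and 3.6-fold at 10 h in shControl, and to 1.19-fold, 1.68-fold and 3.25-fold in shZNF598. On the log2 scale the median member was 1.85 higher at 10 h in shControl, while the median of all rows was -0.19. Both libraries of 10 h were above both of 0 h for 76 of 77 members in shControl (37.5% of all rows) and 75 in shZNF598 (38% of all rows). RPL28 was below in both kinds of cells.

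**Figure D2:**
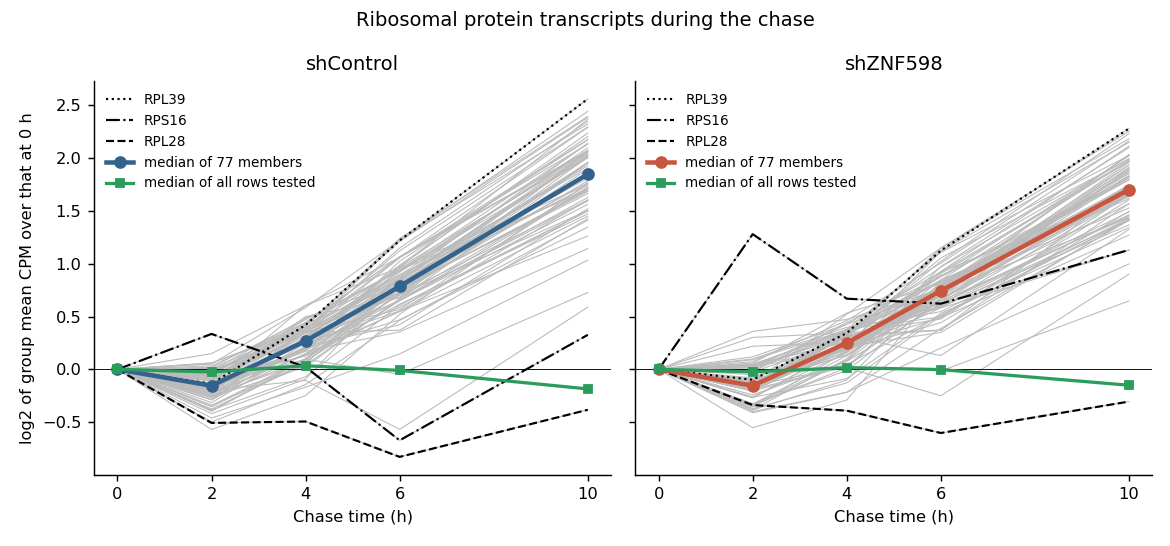
Log2 of the group mean CPM (n = 2) over that at 0 h against chase time in hours, for shControl (left) and shZNF598 (right). Grey lines are the 77 members, the thick line with circles their median, squares the median of all rows tested, and black broken lines RPL39, RPS16 and RPL28; the member median dips at 2 h and reaches 1.85 and 1.70 at 10 h.

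By the edgeR slope over 0 to 10 h (log2 per hour, Benjamini-Hochberg adjusted p below 0.05 over 79513 rows), 74 of 77 members rose and 0 fell in shControl, where 33.5% of all rows rose and 40.8% fell. In shZNF598 75 rose and 0 fell, against 32.7% and 38.5% of all rows. The median slope was 0.200 in shControl (range -0.035 to 0.274) and 0.182 in shZNF598 (range -0.029 to 0.245), while the medians of all rows were -0.018 and -0.014. Standard errors were 0.013 to 0.043 in shControl. Small-subunit members had a median of 0.215 and large-subunit members 0.190 in shControl, and 0.196 and 0.178 in shZNF598.

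Most of this came after 4 h. Over 0 to 4 h alone 14 members rose and 1 fell in shControl, where 12.9% of all rows rose and 21.3% fell, and 13 rose and 0 fell in shZNF598, where 13.4% of all rows rose and 20.5% fell. The shares of members that rose were thus not far from those of all rows, but the shares that fell were lower. The median slopes were 0.056 and 0.060, against -0.002 and 0.0027 over all rows. The estimate was above 0 for 68 and 69 of 77 members. Scaling by library totals alone moved the median slope of all rows to -0.0876 in shControl and -0.0772 in shZNF598, and the members then had medians of 0.131 and 0.120 with 73 rising and 1 falling in each. Of all rows 17.3% then rose and 61.5% fell in shControl, and 16.8% rose and 59.4% fell in shZNF598.

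The steepest member in both kinds of cells was RPL39, a very small protein at the mouth of the exit tunnel. In shControl it was at 35.8 and 45.9 CPM at 0 h, 37.0 and 37.5 at 2 h, 54.5 and 54.8 at 4 h, 95.2 and 95.2 at 6 h, and 229 and 254 at 10 h. In shZNF598 it was at 52.9 and 53.6 CPM at 0 h and 296 and 220 at 10 h. Its 10 h libraries stood far above all of its 0 h libraries. Its slope was 0.274 in shControl (SE 0.024, edgeR adjusted p = 3.66e-09) and 0.245 in shZNF598 (SE 0.024, adjusted p = 2.97e-08). The row (ENST00000361575.4) has 390 nt on chromosome X in 3 exons, and 6.2% of its windows were unique.

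RPL10A of the large subunit followed with a slope of 0.257 in shControl, then RPSA at 0.256, RPLP0 at 0.255 and RPS28 at 0.254. RPSA, which doubles as the laminin receptor, went from 122 and 162 CPM at 0 h to 768 and 774 at 10 h in shControl. RPS28 stood lower, at 4.51 and 5.31 CPM at 0 h and 27.3 and 23.3 at 10 h in shControl. In shZNF598 RPLP0 at 0.245, RPL10A at 0.240 and RPS28 at 0.236 were also among the steepest.

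**Figure D3:**
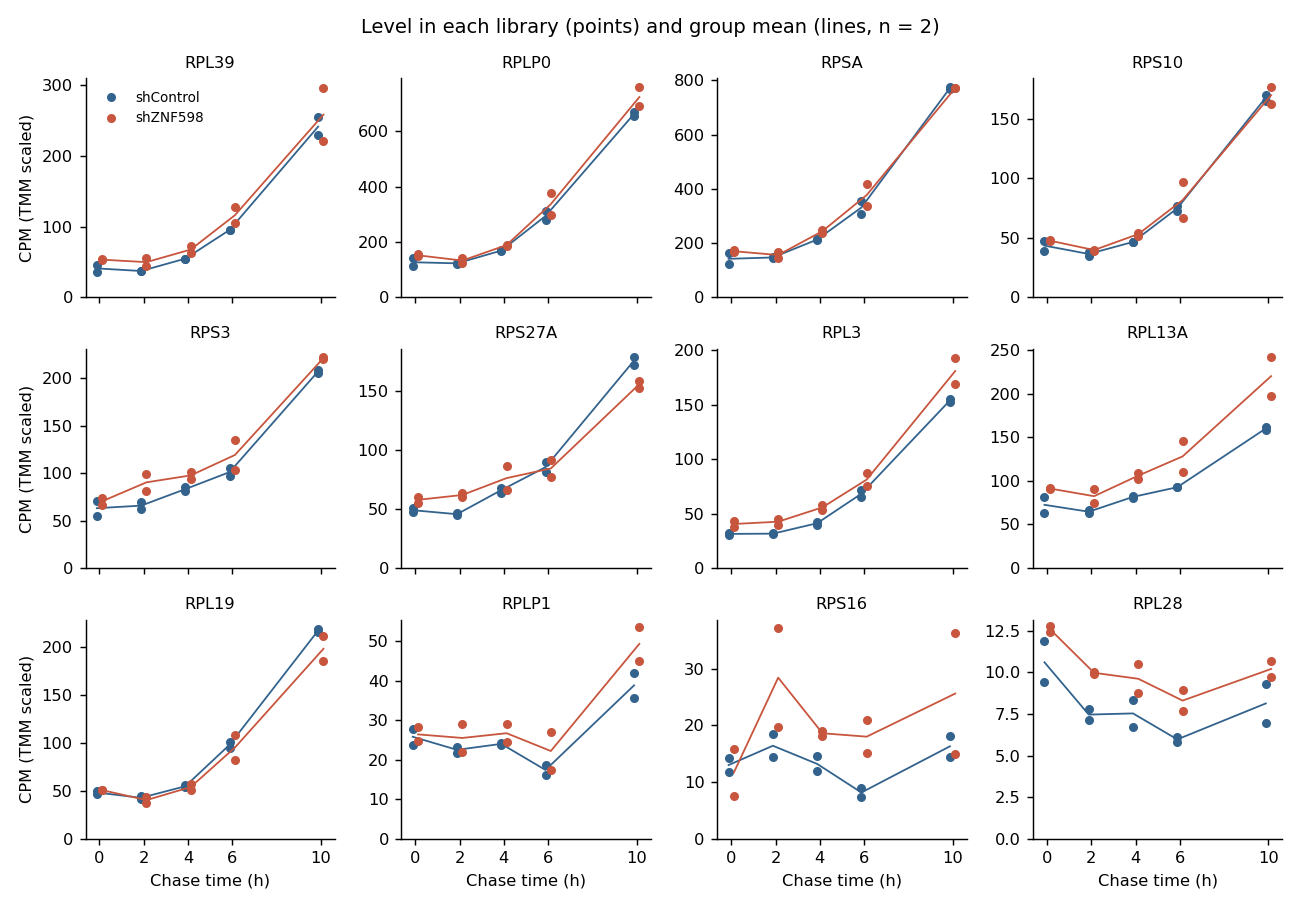
TMM-scaled CPM against chase time in hours for 12 members, each with its own axis from 0. Points are single libraries and lines the means of 2, blue for shControl and red for shZNF598; most members climb steeply between 6 and 10 h, whereas RPL28 stays between 5.81 and 12.8 CPM.

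The stalk of the large subunit, which recruits translation factors, did not move as 1 unit. RPLP0, its anchor, was at 112 and 142 CPM at 0 h and 670 and 657 at 10 h in shControl. RPLP2 went from 13.5 and 15.4 to 61.0 and 54.9 CPM, with a slope of 0.209 (SE 0.023, edgeR adjusted p = 7.08e-08). RPLP1, its partner, was at 23.8 and 27.7 CPM at 0 h, 18.6 and 16.2 at 6 h and 41.9 and 35.7 at 10 h. Its slope of 0.054 in shControl did not pass (SE 0.028, edgeR adjusted p = 0.0904) and 0.084 in shZNF598 did (SE 0.029, adjusted p = 0.0123). Without either shZNF598 library of 10 h that call was lost, with edgeR adjusted p up to 0.164. It was also lost with library totals only, with a filter at 10 CPM, without all libraries of either replicate number and over 0 to 4 h (adjusted p up to 0.964), so it depended on how the data were handled.

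The other members that did not pass in either kind of cell were RPL28 and RPS16. RPL28 of the large subunit was at 11.9 and 9.40 CPM at 0 h, 5.81 and 6.13 at 6 h and 9.31 and 6.95 at 10 h in shControl, with a slope of -0.035 (SE 0.022, edgeR adjusted p = 0.144). The gene has 7 other tested rows, which may share reads with its row of 4797 nt. The shorter protein_coding ones had slopes of 0.027 to 0.067 in shControl, none of them passing. RPS16 of the small subunit was at 11.7 and 14.3 CPM at 0 h, 7.34 and 8.98 at 6 h and 18.2 and 14.4 at 10 h in shControl. In shZNF598 its replicates were far apart, at 19.7 and 37.1 CPM at 2 h and 36.2 and 15 at 10 h. Its slopes were 0.004 in shControl and 0.055 in shZNF598 (edgeR adjusted p = 0.939 and 0.285). The lowest slopes that passed in shControl were those of RPL17 at 0.074, RPL37 at 0.118 and RPL13A at 0.122.

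The ZNF598 targets RPS10 and RPS20, and the small-subunit proteins RPS3 and RPS2, rose over 0 to 10 h with the rest. RPS10 was at 39.3 and 47.6 CPM at 0 h and 170 and 165 at 10 h in shControl, and at 47.0 and 48.5 and then 163 and 177 in shZNF598. Its slopes were 0.212 (SE 0.025) and 0.201 (SE 0.025), with edgeR adjusted p = 1.84e-07 and 5.35e-07. The slopes of RPS20 were 0.148 and 0.133, those of RPS3 0.176 and 0.160, and those of RPS2 0.217 and 0.214, in shControl and shZNF598 respectively. RPS20 rose late in shZNF598, from 49.0 and 48.4 CPM at 0 h to 48.3 and 58.3 at 6 h. Its slope there did not pass over 0 to 4 h or 0 to 6 h (edgeR adjusted p up to 0.16). The RPS10 row overlaps the readthrough gene RPS10-NUDT3 on its strand, so reads of the pair cannot be told apart there.

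Further members of known roles gave slopes within the same range. RPL5 and RPL11, which form the 5S particle and bind MDM2, had slopes of 0.183 and 0.209 in shControl and 0.160 and 0.186 in shZNF598. RPS19, often mutated in Diamond-Blackfan anaemia, had 0.238 and 0.222, and RPL3, near the peptidyl transferase centre, had 0.243 and 0.225. RPL41, the smallest ribosomal protein, had 0.193 and 0.173. All of these passed in both kinds of cells over 0 to 10 h. The RPL5 row was the exception over 0 to 24 h, where it no longer passed in either (edgeR adjusted p = 0.101 and 0.181).

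Slopes of the 77 members in shControl and shZNF598, which share no library but share the scaling, had Pearson's r = 0.96 and Spearman's rho = 0.93 across genes. The slopes of the 2 replicate numbers gave r = 0.96 within shControl and r = 0.90 within shZNF598. Features that the rule did not use separated the members little: the median slope in shControl was 0.202 for the 28 genes with a snoRNA in an intron and 0.199 for the 49 without, and 0.213 for the 20 rows with under 50% unique windows and 0.199 for the 53 others. Rows under 1 kb had a median of 0.208 and longer rows 0.183.

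**Figure D4:**
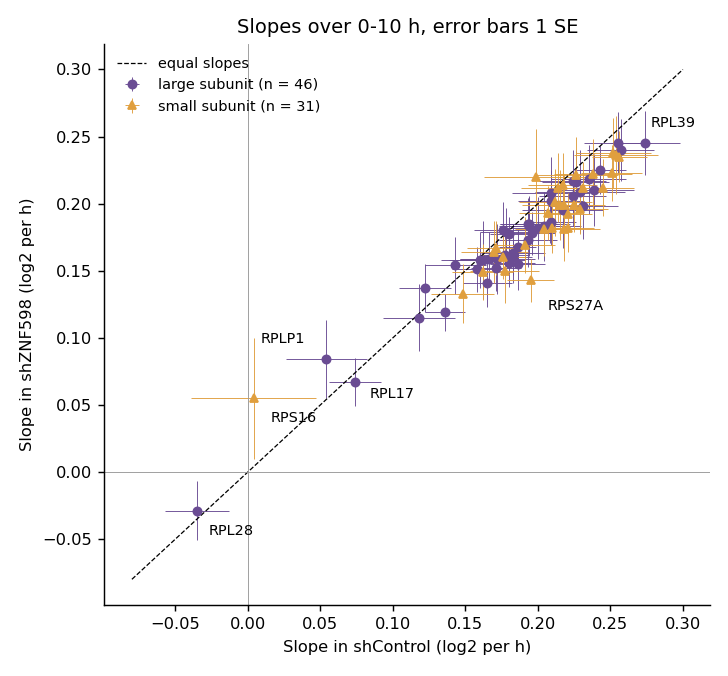
Slope in shZNF598 against slope in shControl, both in log2 per hour over 0 to 10 h, with error bars of 1 SE, circles for the 46 large-subunit and triangles for the 31 small-subunit members. The dashed line marks equal slopes; most points lie slightly under it, and RPL28, RPS16, RPLP1 and RPL17 lie apart at the low end.

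The other transcripts of the same genes mostly rose too. They may share reads with the member rows, to an extent that was not measured. Among rows annotated to nonsense-mediated decay 52 of 52 rose in shControl (median slope 0.195), where 33.6% of all such rows in the files' tested set rose. Among retained-intron rows 212 of 222 rose (median 0.190), against 40.7% of all such rows. Of the 406 pseudogene rows tested 392 rose and 9 fell, with a median of 0.206, where 33.5% of all rows rose and 40.8% fell in shControl. These rows are copies of the member genes, and the part of parent reads in them was not tested.

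Neighbouring groups are set here beside the 33.5% of all rows that rose and the 40.8% that fell in shControl. Among the ribosome components with other symbols FAU (0.188), which encodes a ribosomal protein fused to a ubiquitin-like part, and RACK1 (0.189), a scaffold on the small subunit, rose in shControl. Of 20 translation factors and other genes of the TOP class 17 rose and 1 fell (median 0.129), led by EEF1A1 at 0.220, which carries aminoacyl-tRNA to the ribosome, while EIF4A2 fell at -0.039. Of the 5 paralogues tested 4 rose, among them RPS27L at 0.191, and RPL7L1 fell at -0.198. Of 50 ribosome biogenesis factors 8 rose and 33 fell (median -0.081), with NHP2 at 0.180 and BRIX1 at -0.245. Of 15 regulators of these mRNAs 3 rose and 10 fell, with MTOR at 0.122 and LARP1 at -0.055. Of 13 chaperones of ribosomal proteins 5 rose and 3 fell, a share rising that was near that of all rows. The 78 mitochondrial ribosomal proteins, which serve the ribosome of another compartment and were added for comparison, had 20 that rose and 40 that fell (median -0.035). These groups were compared by counts and medians only.

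The second question was whether the slopes differed between the hairpins. By edgeR's interaction term 0 of 77 members passed, where 0.00252% of all rows had a higher and 0.113% a lower slope in shZNF598. DESeq2 called 0 as well. At an unadjusted p below 0.05 there was 1 member, against 5.53% of all rows. That member was RPS27A, which makes ubiquitin fused to a small-subunit protein. It was at 47.4 and 50.8 CPM at 0 h and 172 and 179 at 10 h in shControl, and at 60.3 and 55.5 and then 159 and 153 in shZNF598. It was thus higher at 0 h and lower at 10 h in the knockdown, with no overlap at either time, and the difference in slope was -0.052 per hour (SE 0.023, edgeR adjusted p = 0.847).

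The median difference in slope over the members was -0.017 (range -0.052 to 0.051), against 0.001 over all rows, and 8 of 77 were positive against 51.2% of all rows. The next lowest were RPS7 at -0.040 and RPS29 at -0.036, and the highest were RPS16 at 0.051, RPLP1 at 0.030 and RPS15 at 0.021, none of which passed. The median depended on single libraries: it was -0.000 without shZNF598 0 h replicate 2, -0.002 without shZNF598 0 h replicate 1, -0.005 without either shControl library of 10 h, -0.028 without shZNF598 10 h replicate 2, and -0.037 without shControl 0 h replicate 2. RPS10, RPS20, RPS3 and RPS2 differed in slope by -0.011, -0.015, -0.016 and -0.003, with SE of 0.036, 0.031, 0.023 and 0.034.

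The third question was whether the labelled level differed between the hairpins. The 10 libraries per hairpin come from 5 chase times of the cells that carried it, so they do not replicate the knockdown. Effects of the hairpin and of the cells that carried it cannot be told apart. In bulk RNA such as this, fewer cells of a kind and less RNA per cell cannot be told apart. Averaged over 0 to 10 h, 49 of 77 members were higher in shZNF598 and 0 were lower by edgeR (adjusted p below 0.05), where 12.3% of all rows were higher and 10.1% lower. The median difference was 0.173 on the log2 scale (range -0.042 to 0.588), against 0.020 for all rows. The estimate was above 0 for 76 of 77, against 55.5% of all rows, with RPL19 at -0.042 as the exception. Of the large subunit 28 of 46 passed (median 0.176) and of the small subunit 21 of 31 (median 0.168). Leaving out single libraries gave 36 to 65 members. Of 79513 rows 7740 were higher and 7150 lower at the setting with 36. At that with 65, 9404 were higher and 7580 lower.

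The difference was led by RPS16 at 0.588 (SE 0.138, edgeR adjusted p = 0.00346), whose replicates in shZNF598 were uneven as described. RPL13A, also known as a subunit of the GAIT complex, was steadier. It was at 63.1 and 81.9 CPM in shControl and 90.9 and 91.6 in shZNF598 at 0 h, and at 162 and 158 against 197 and 242 at 10 h. The shZNF598 libraries were above the shControl libraries at all 5 times from 0 to 10 h, and the mean difference was 0.396 (SE 0.058, edgeR adjusted p = 2.5e-05). RPL28 differed by 0.363 (SE 0.065) and RPS21 by 0.348 (SE 0.064).

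RPL3 was at 30.8 and 31.9 CPM in shControl and 37.9 and 43.0 in shZNF598 at 0 h, and at 155 and 153 against 169 and 193 at 10 h. Its groups did not overlap at any of the 5 times, and it differed by 0.345 (SE 0.048, edgeR adjusted p = 1.1e-05). Of the ZNF598 targets RPS20 was higher by 0.253 and passed, whereas RPS10 at 0.120 did not (SE 0.055, edgeR adjusted p = 0.121). RPS3 at 0.236 and RPS2 at 0.254 passed. Of the stalk RPLP0 (0.173), RPLP1 (0.214) and RPLP2 (0.257) passed. RPL41 passed at 0.209 and RPS27A narrowly at 0.138 (edgeR adjusted p = 0.047), while RPL5 (0.088), RPL11 (0.125) and RPS19 (0.10) did not pass. The calls of RPS27A and RPLP1 were lost when single libraries were left out, in 16 and 10 of the 20 cases, with adjusted p up to 0.152 and 0.104. That of RPS27A was also lost with DESeq2 size factors, library totals only, 1 row per gene and without the 0 h libraries (edgeR adjusted p up to 0.165), and that of RPLP1 with library totals only (adjusted p = 0.0508).

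**Figure D5:**
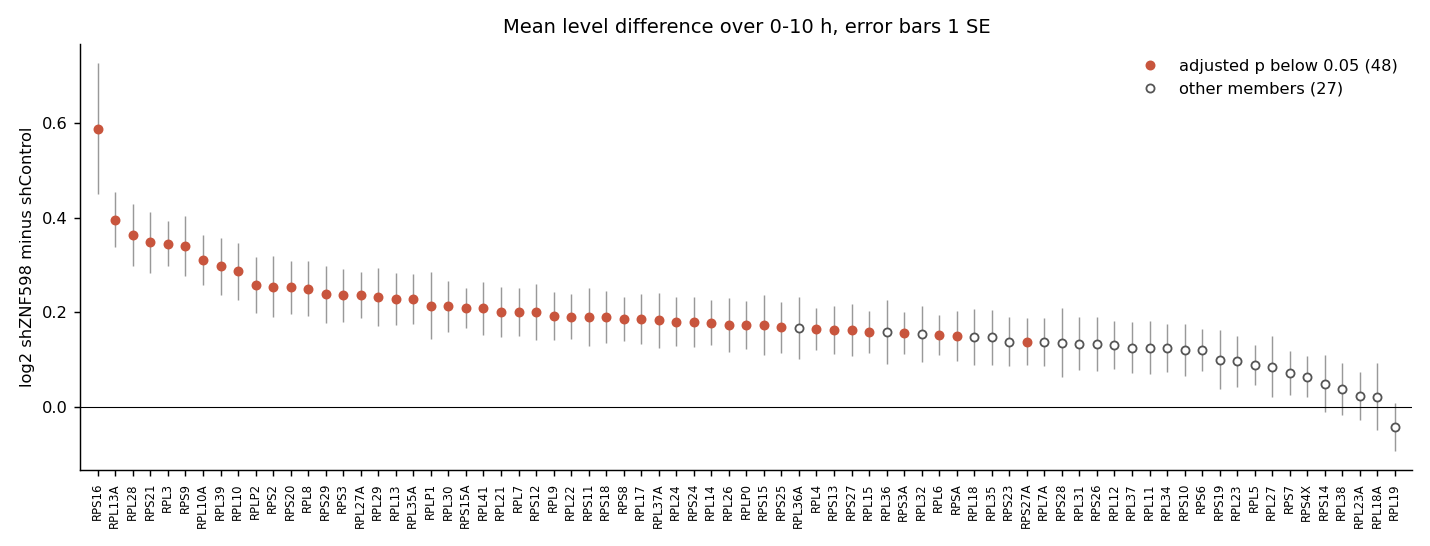
Log2 difference in level, shZNF598 minus shControl averaged over 0 to 10 h, for 75 of the 77 members in order of size, with error bars of 1 SE. Filled points mark the 48 of these with edgeR adjusted p below 0.05; all but RPL19 lie above 0.

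By time, the groups separated most at the start of the chase. Both shZNF598 libraries were above both shControl libraries for 61 of 77 members at 0 h (21.8% of all rows), 62 at 2 h (26.3%), 52 at 4 h (23.7%), 18 at 6 h (23.8%) and 34 at 10 h (23.3%). The median log2 difference was 0.203, 0.253, 0.186, 0.141 and 0.077 at these times, against 0.021, 0.018, 0.005, 0.027 and 0.025 over all rows. At 6 h the shZNF598 replicates were unlike, with member shares of 0.759% and 0.908%, and at 10 h 8 members were below in both libraries (21.3% of all rows).

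At 0 h alone 0 of 77 members passed by edgeR, where 0.0729% of all rows were higher and 0.335% lower. DESeq2 called 0, and 25 members had an unadjusted p below 0.05, against 10.1% of all rows. The largest estimates, none passing, were those of RPS9 at 0.443 (SE 0.146), RPL10A at 0.426 (SE 0.120) and RPS29 at 0.393 (SE 0.138), and RPS16 was the single member below 0, at -0.155. The shControl replicates of 0 h were unlike, with member shares of 0.472% and 0.531%. Without replicate 2 of shControl at 0 h 7 members were higher and 0 lower with a median of 0.302, where 0.967% of all rows were higher and 1.42% lower. Without replicate 1 0 members passed and the median was 0.10, where 0.177% of all rows were higher and 0.502% lower.

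Against the 12.3% of all rows that were higher and 10.1% lower, the other groups held 9 of 20 TOP-class genes that were higher on average over 0 to 10 h and 0 that were lower (median 0.114), among them GAS5 at 0.431 and EIF4A2 at 0.298. Of the 50 biogenesis factors 5 were higher and 3 lower, and of the 78 mitochondrial ribosomal proteins 13 were higher and 4 lower (median 0.057), shares higher that were near that of all rows. FAU (0.125) and RACK1 (0.044) did not pass. Among the paralogues RPL36AL was higher at 0.205 and RPS27L, a p53 target, was lower at -0.332.

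At 24 h, with 1 library per hairpin and no test, members went both ways from 10 h, as all rows did. The share of counts was 1.70% in shControl and 1.61% in shZNF598. In shControl the library of 24 h was above both of 10 h for 56 members (50.7% of all rows) and below both for 17 (42.6% of all rows). In shZNF598 it was above for 44 (50% of all rows) and below for 24 (39.9% of all rows), shares not far from those of all rows. The median log2 difference from 10 h was 0.377 in shControl and 0.159 in shZNF598, against 0.113 over all rows in both.

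RPL39 was the highest in both, at 689 CPM in shControl and 532 in shZNF598 at 24 h, which was 1.55 and 1.10 above 10 h on the log2 scale. RPL17 was the lowest, at 30.9 and 31.3 CPM, or -1.09 and -1.19 against 10 h, and its row overlaps a readthrough gene and holds 3 snoRNAs in introns. RPL5 had likewise dropped to 203 and 208 CPM, or -1.03 and -0.93 against 10 h, while its 5S partner RPL11 was at 234 and 232 CPM, or -0.15 and -0.16. Between the 24 h libraries the median member difference, shZNF598 minus shControl, was -0.114 (range -0.694 to 0.401) against -0.037 for all rows, where it had been above 0 at each earlier time.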

How the data were processed

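Per the study's methods and the labels, trimmed single-end 50 nt reads of stranded libraries that did not align to noncoding RNA were mapped by the authors with STAR 2.7.0a to hg38 with GENCODE release 32, keeping reads with 1 location and at most 1 mismatch, and assigned to transcripts by featureCounts. The authors deposited the resulting counts without normalization. The tables hold transcript identifiers only; names, types and coordinates came from GENCODE release 44 of the same build (98.4% of 227264 identifiers named, 92.2% with the same version). The strand setting of the counting is not given in the sources used here, and 24 member genes have a gene on the other strand. A further column of the files, of another unit, equals transcript length in nt divided by 3 and served only as a check.

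Counts were fitted with edgeR 4.0.16 (R 4.3.3, TMM factors, quasi-likelihood test) over the 20 libraries of 0 to 10 h, on rows with a mean of at least 1 CPM, with hairpin, hours and their interaction for slopes and 1 mean per group for levels. P-values were adjusted over all 79513 rows. DESeq2 1.42.0 was an alternative. The 24 h libraries entered no main fit. The fits were tested on simulated counts, drawn separately for each row and so without reads shared between isoforms. The planted differences between hairpins were larger than the member medians reported here. Members and lists were chosen with earlier results of these data known. Named members were a fixed set with roles at the ribosome and, per comparison, up to 5 of the largest changes that passed in each direction with the same sign in both replicate numbers, or 3 where none passed, and 5 at each end of the levels. RPL19, RPL17, RPL37 and RPS9 were named after their values were seen. A few genes are counted in the groups but not reported here by name.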

Additional observations from a re-analysis of the deposited data

How the results depend on the processing

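Counts of called members stayed within 1.5 times their main value and kept the sign of the median under the other scalings, filters, row choices and tests, with these exceptions. Over 0 to 4 h, 15 members were called in shControl and 13 in shZNF598, in place of 74 and 75. With no filter on low rows, 2 members were called higher at 0 h in place of 0, where 206 of 183249 rows were higher and 582 lower. Leaving out single libraries gave 74 to 75 called slopes in shControl, 74 to 76 in shZNF598, 0 to 0 slope differences, 0 to 7 level differences at 0 h and 36 to 65 mean level differences, and leaving out all libraries of 1 replicate number gave 73 to 74 called slopes in both. RPLP1 turned direction: its slope in shControl was -0.016 with library totals only, -0.037 over 0 to 4 h and -0.081 over 0 to 6 h, and in shZNF598 -0.035 over 0 to 6 h. The median slope difference of the members was 0.002 over 0 to 4 h in place of -0.017. The causes were not tested. Without the 0 h libraries, an alternative added after seeing the data, 75 slopes were called in each and 41 mean level differences. Of 79513 rows 24924 then rose and 30404 fell in shControl, and 23335 rose and 29126 fell in shZNF598. In mean level 8783 rows were higher and 8415 lower. Deviations from group means correlated between -0.33 and 0.47 over 45 pairs of groups, above 0.1 in 12. Pairing of libraries by replicate number was thus not seen throughout, but it is not excluded at some times. The fit with a replicate block called 74, 75, 0, 0 and 54 members for slope in shControl, slope in shZNF598, slope difference, level at 0 h and mean level. In that fit 10264 of 79513 rows were higher in mean level and 8338 lower. With 2 libraries per group, level differences at 1 time rest on few degrees of freedom, and without spike-in scaling no slope is an absolute decay rate.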
